A study of Mus musculus with 6 samples.

Results

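A total of 416 differentially methylated regions (DMRs) lay within 1 kb of a transcription start site (TSS) and carried more methylation in young adult than in infant lung endothelial cells (EC). They were selected from 18168 listed DMRs on chromosomes 1 to 19, of which 53.7% gained methylation at any distance, by a higher young adult than infant mean and by a midpoint at most 1 kb from the start of any curated RefSeq transcript, and the whole list held 18333 DMRs. The direction, the size of the difference, both group means and the distance to the TSS are therefore properties of the selection and are given as descriptions, with no test.

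Methylation was measured by T-WGBS, bisulfite sequencing of the genome after tagmentation, which reads each cytosine followed by guanine (CpG) as methylated or not. EC were sorted by FACS from lungs of C57BL/6N mice, female per the study's methods, as PTPRC- LYVE1- LY76- PDPN- CD31+ CD34+ cells, a gate set to leave out leukocytes, lymphatic EC, erythroid cells and PDPN+ epithelium. The infant group held 3 samples from mice of 8 to 10 days, and the young adult group held 3 samples from mice of 8 to 12 weeks, and no transgene or treatment is named for either. The deposited list gives 1 mean per group and DMR, so no value per sample, no spread between replicates is known and no read depth behind a region beyond the coverage minimum per CpG that the authors required in at least 2 samples of each group, and no difference below can be set against replicate error.

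Methyl groups on CpGs at and around start sites are placed de novo by DNMT3A and DNMT3B and kept through cell division by DNMT1. CpG islands, the CpG-rich stretches that cover the start sites of most housekeeping and many developmental genes, are usually free of methylation, and methylation of an island start site is known to accompany stable silencing. Flanks of islands and the first part of a gene downstream of its start can gain or lose methylation during development without such silencing, so a change near a TSS does not by itself tell the direction of transcription. Expression was not analysed here, and the cell type could not be checked against expressed markers; none of the 10 endothelial, 4 lymphatic, 8 leukocyte, 5 erythroid, 8 epithelial and 8 mesenchymal marker genes examined had a start site within 1 kb of a gain DMR, beside 1.58% of all annotated genes.

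The sequences behind the main findings are shown on the plus strand of mm10, read from the reference genome, with each CpG in capitals. The first set holds regions with some of the largest differences; that at Skida1 is longer than shown and its central stretch is printed.
Skida1, chr2:18048865-18049164: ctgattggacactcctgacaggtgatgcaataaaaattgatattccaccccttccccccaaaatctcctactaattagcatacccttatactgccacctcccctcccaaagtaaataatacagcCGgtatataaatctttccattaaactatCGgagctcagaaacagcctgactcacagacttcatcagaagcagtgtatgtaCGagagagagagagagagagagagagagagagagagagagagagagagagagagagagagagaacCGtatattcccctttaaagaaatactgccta
E2f1, chr2:154568668-154568941: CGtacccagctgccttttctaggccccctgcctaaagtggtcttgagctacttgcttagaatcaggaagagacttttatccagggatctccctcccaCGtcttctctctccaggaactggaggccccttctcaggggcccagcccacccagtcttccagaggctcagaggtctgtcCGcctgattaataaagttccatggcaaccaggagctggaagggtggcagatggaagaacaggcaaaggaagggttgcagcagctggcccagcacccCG
H3c14, chr3:96247465-96247503: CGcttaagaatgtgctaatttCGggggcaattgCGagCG
Gcnt2, chr13:40917999-40918109: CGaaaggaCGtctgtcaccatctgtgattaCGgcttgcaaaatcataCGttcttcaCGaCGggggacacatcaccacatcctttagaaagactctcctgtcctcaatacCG
Snai1, chr2:167538857-167538903: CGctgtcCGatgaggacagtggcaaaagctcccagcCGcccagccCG
The second set holds regions with many CpGs, again with the central stretch for Dnmt3a and Aplnr.
Dnmt3a, chr12:3892094-3892393: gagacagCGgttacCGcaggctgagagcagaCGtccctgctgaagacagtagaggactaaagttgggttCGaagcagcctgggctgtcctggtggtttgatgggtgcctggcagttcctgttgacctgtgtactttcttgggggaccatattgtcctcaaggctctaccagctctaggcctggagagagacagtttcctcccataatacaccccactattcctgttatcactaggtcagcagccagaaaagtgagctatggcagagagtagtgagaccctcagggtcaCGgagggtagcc
Aplnr, chr2:85136879-85137178: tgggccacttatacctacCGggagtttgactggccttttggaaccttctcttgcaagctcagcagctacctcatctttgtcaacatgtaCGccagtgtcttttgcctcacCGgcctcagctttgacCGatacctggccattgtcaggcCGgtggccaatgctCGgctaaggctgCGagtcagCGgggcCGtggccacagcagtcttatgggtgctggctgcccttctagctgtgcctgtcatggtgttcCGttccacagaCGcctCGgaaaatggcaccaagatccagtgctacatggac
Sstr4, chr2:148395122-148395269: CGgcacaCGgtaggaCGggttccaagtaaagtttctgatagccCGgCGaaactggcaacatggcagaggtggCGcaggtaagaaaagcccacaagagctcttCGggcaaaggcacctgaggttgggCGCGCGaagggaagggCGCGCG
Mir6991, chr19:7422108-7422189: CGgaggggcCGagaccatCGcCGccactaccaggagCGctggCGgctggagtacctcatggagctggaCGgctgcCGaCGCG
The third set holds regions at 2 imprinted genes, which are expressed from one parental copy.
Nnat, chr2:157559451-157559603: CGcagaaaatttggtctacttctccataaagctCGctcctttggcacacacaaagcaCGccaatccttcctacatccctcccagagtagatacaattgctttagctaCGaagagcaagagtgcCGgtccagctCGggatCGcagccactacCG
Gnas, chr2:174327527-174327627: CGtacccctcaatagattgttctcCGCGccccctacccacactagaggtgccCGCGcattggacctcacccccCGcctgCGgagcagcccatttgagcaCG
The CpGs are spaced very differently: the H3c14 region holds 4 in 39 bases, the Sstr4 region 13 in 148 bases, and the E2f1 region the same number as H3c14 in 274 bases.

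Near start sites, gain DMRs mostly went from low or intermediate methylation to an intermediate level. Infant EC had a median level of 34.3% (quartiles 18.5% and 54.7%, range 0% to 89.0%) and young adult EC one of 63.3% (quartiles 44.2% and 79.6%, range 13.5% to 100%). The difference had a median of 23.7 points (quartiles 18.2 and 28.7), reached 20 points or more in 281 DMRs, 30 points or more in 89 and 40 points or more in 9, and ended at 47.1 points. In 156 DMRs methylation went from under 50% to 50% or more, in 130 both groups stayed under 50%, and in 130 both were at 50% or more. A start from under 20% in infant EC was found in 116 DMRs (27.9%), and 59 of the 416 were under 10%. Only 7 DMRs went from under 20% to at least 50%: those at Skida1, E2f1, Lmbr1, Gcnt2, Dnmt3a and Tm6sf1 and 1 of the 5 assigned to Mir6991. At the upper end, 102 DMRs exceeded 80% in young adult EC.

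**Figure D1:**
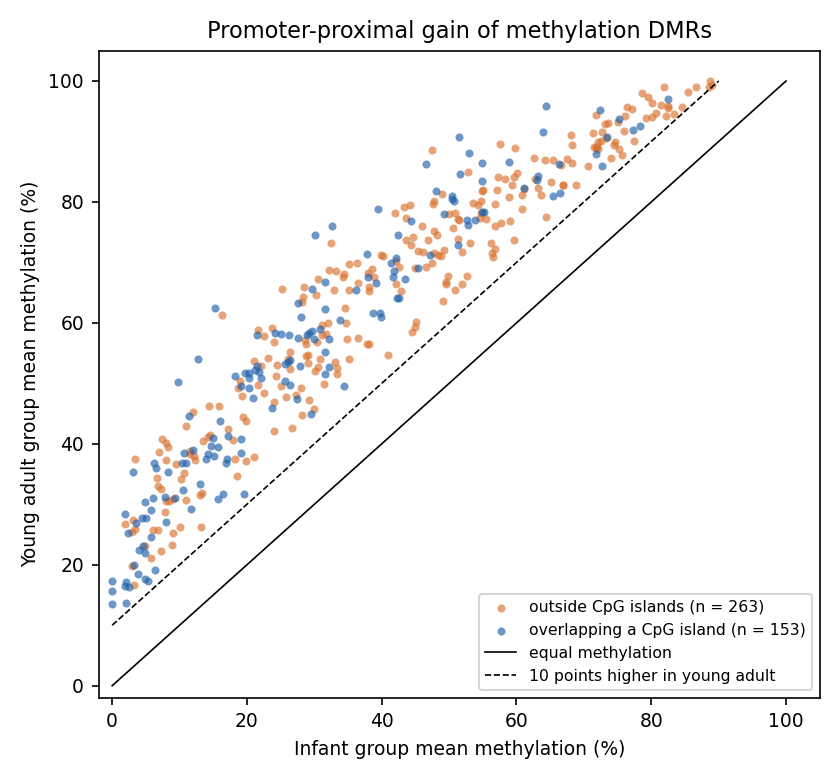
Group mean methylation of the 416 promoter-proximal gain DMRs in infant EC (x axis, %) and young adult EC (y axis, %), 1 point per DMR, coloured by overlap with a CpG island. All points lie above the dashed line of a 10 point difference, the minimum the authors set for a DMR, and most island DMRs start below 50% in infant EC.

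Compared with the 9338 autosomal gain DMRs farther from a TSS, the proximal ones started lower, which is given as a description since the contrast chose both sets. Median infant methylation was 56.2% in the distant gains against 34.3%, and 13.4% of distant gains started under 20% against 27.9%. Distant gains ended at a median of 78.8% in young adult EC and differed by a median of 20.3 points. Proximal gains were also narrower, with a median width of 80 bp (range 8 to 1039 bp) against 126 bp, and held more CpGs, on average 3.72 against 3.35, with 5 or more CpGs in 14.7% against 7.10%. Most of the proximal gains nevertheless held the minimum of 3 CpGs (294 of 416, 70.7%).

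Beside the 53.7% of all autosomal DMRs, gains were 59.9% of the 694 DMRs within 1 kb of a TSS, and the share stayed between 54.8% and 64.5% in each 250 bp step from 1000 bp upstream to 1000 bp downstream. Proximal DMRs were 4.26% of all gains and 3.30% of all losses. By chromosome, chromosome 2 held the most, 54 DMRs or 6.37% of its gains, and chromosome 9 had the lowest share, 2.52%.

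Gain DMRs stood at both sides of the start site. The midpoint was downstream of the TSS in 231 and upstream in 185, 92 were within 250 bp of it, and 22 covered it. Methylation did not follow the distance in a regular way: the median infant level per 250 bp step lay between 27.8% and 44.6%, and the median difference between 22.6 and 26.8 points. By annotation, the midpoint lay in an intron in 186 DMRs, outside any transcript in 122, in a coding exon in 60, in an untranslated exon in 27 and in an exon of a non-coding transcript in 21. For 329 DMRs the nearest TSS was the most upstream of its gene, and for 87 it was an internal one, so that "promoter-proximal" covers alternative start sites as well.

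**Figure D2:**
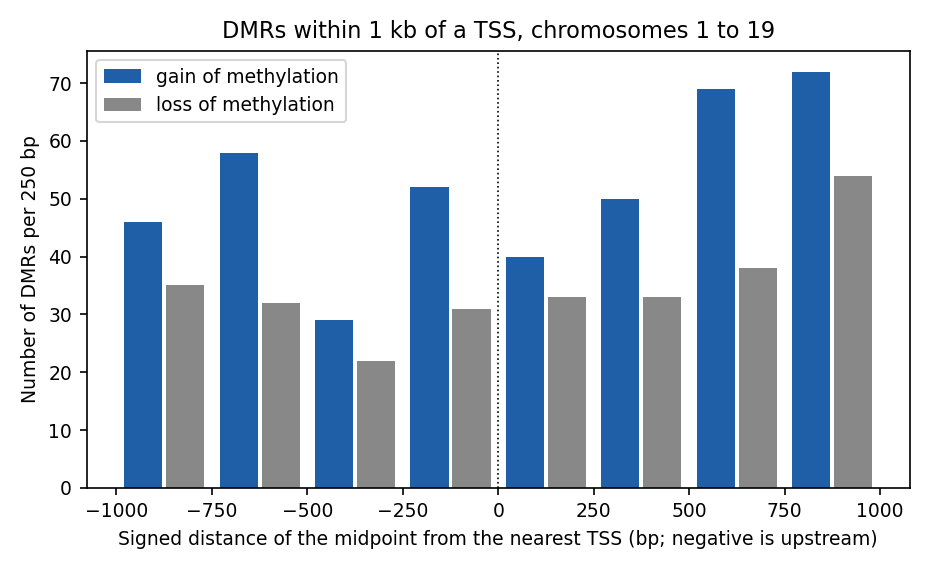
Number of DMRs per 250 bp (y axis) by signed distance of the midpoint from the nearest TSS (x axis, bp), for the 416 gain (blue) and 278 loss (grey) DMRs. Gains outnumber losses in each step, with 72 gains in the outermost downstream step and 29 between 500 and 250 bp upstream.

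Gain DMRs overlapped CpG islands more often than loss DMRs at the same distance did. An island, taken here as the union of 200 bp windows with a minimum GC content of 50% and a ratio of observed to expected CpGs above 0.6, shared at least 1 base with 153 of 416 gain DMRs (36.8%, 95% Wilson interval 32.3% to 41.5%) and with 47 of 278 loss DMRs (16.9%, 12.96% to 21.8%). The odds ratio was 2.86 (95% interval 1.95 to 4.24, two-sided Fisher's exact test across DMRs, p = 8.4e-09, Benjamini-Hochberg adjusted over 4 tests 3.4e-08). This test sets DMRs against DMRs and says nothing of the spread between mice. The sets were not matched on infant level. With a minimum difference of 10 points no loss DMR could start under 10% in infant EC, while 32 island gain DMRs did. The part of this limit in the odds ratio was not tested. In distant gains the share in islands was 14.2%. Of all 30177 annotated start positions 56.3% lay in an island; the nearest TSS itself lay in one for 225 gain DMRs (54.1%) and for 33.5% of loss DMRs.

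Within the gains, island DMRs were shorter and less methylated. Their median width was 47 bp against 100 bp outside islands, and their median methylation was 26.4% in the infant and 53.5% in the young adult group, against 42.1% and 68.1% outside. The median difference was 24.9 points in islands and 22.8 points outside. Infant methylation under 20% was found in 39.2% of island DMRs and in 21.3% of the others, and 5 or more CpGs in 22.9% and 9.89%.

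The midpoint of a gain DMR lay in an exon more often than that of a loss DMR, in 108 of 416 (25.96%, 22.0% to 30.4%) against 48 of 278 (17.3%, 13.3% to 22.1%). The odds ratio was 1.68 (1.13 to 2.52, Fisher's exact test, adjusted p = 0.0144), but with 1 DMR per nearest gene it was 1.30 and the adjusted p was 0.361. Coding exons held most of these gains, 60 of 416 (14.4%), against 5.76% of loss DMRs. Within the gain DMRs the midpoint was in an exon in 38.6% of those in islands and in 18.6% of those outside. The exon share was therefore not separate from island overlap, and the same split was not made for loss DMRs. The share downstream of the TSS differed by less than the counting error (55.5% against 56.8%, odds ratio 0.948, 0.690 to 1.30, Fisher's exact test, adjusted p = 0.755). Out to 2 kb, gain DMRs were less often downstream (odds ratio 0.592, Fisher's exact test, adjusted p = 1.25e-06). A non-coding transcript owned the nearest TSS in 24.5% of gain and 20.1% of loss DMRs (odds ratio 1.29, 0.878 to 1.90, Fisher's exact test, adjusted p = 0.262).

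**Figure D3:**
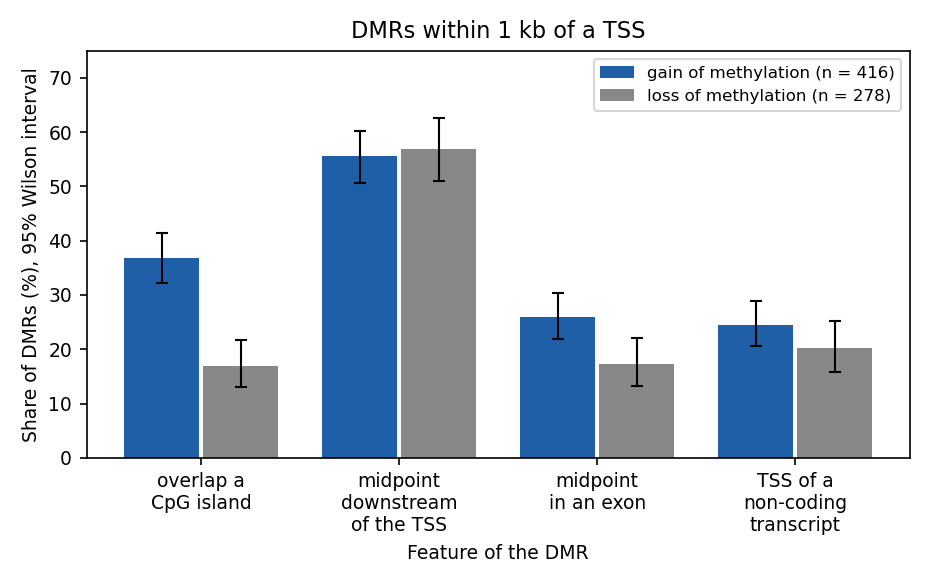
Share of DMRs (y axis, %) with each of 4 features among 416 gain (blue) and 278 loss (grey) DMRs within 1 kb of a TSS; error bars are 95% Wilson intervals and cover counting of DMRs only. The shares in islands are 36.8% and 16.9%, and their intervals do not overlap.

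Short binding motifs were searched on both strands in the 200 bp around each midpoint. The GC box GGGCGG, bound by SP and KLF factors, was in 13.5% of gain DMRs, 6.12% of proximal loss DMRs, 5.75% of all autosomal DMRs and 39.1% of windows of that length around start positions. Within the gain DMRs it was in 22.9% of those in islands and in 7.98% of those outside, so its share was not separate from island overlap. The GATA motif AGATAA was in 5.05% of gain and 11.9% of proximal loss DMRs, beside 11.8% of all DMRs and 5.10% of start positions. The ETS core CCGGAA was found in 4.33% of gain DMRs and 4.13% of all DMRs, the AP-1 motif TGANTCA in 5.53% and 6.54%, the E-box CACGTG in 2.40% and 4.24%, and the CRE half-site TGACG in 13.2% and 12.2%. A match is a run of letters in a window and was not tested as a site.

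The 416 DMRs had 368 nearest genes, and 394 genes had a TSS within 1 kb of at least 1 of them, which is 1.58% of the 24963 genes annotated on these chromosomes. Of these genes 298 had a coding transcript. The nearest TSS belonged to an mRNA for 314 DMRs, to a lncRNA for 65 and to a microRNA precursor for 20. A single gain DMR was found at 361 genes, 2 or more at 33 and 3 or more at 10. Proximal loss as well as gain was present at 9 genes: Gcnt2, Cald1, Sh3tc1, Arhgef3, Gna15, Creb5, 3300002A11Rik, Wars and Slc25a25, listed after their values were seen. No share of all genes with a proximal loss was counted to set beside these 9.

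The largest difference was at Skida1, a gene named for its SKI/DACH domain. Its region of 760 bp with 17 CpGs (chr2:18048635-18049394, centred 565 bp upstream of the TSS) was methylated to 15.3% at the infant and to 62.4% at the young adult stage. At E2f1, the transcription factor of entry into S phase, an intronic DMR 622 bp downstream of an internal TSS went from 16.4% to 61.3%. Upstream of Hoxb3os, a non-coding RNA of the HoxB cluster, methylation was 30.2% and 74.6%. At the histone gene H3c14 it was 32.6% and 76.0%, with the DMR just past the gene, and in an intron of Lmbr1, known for the limb enhancer of Shh that it carries, 12.7% and 54.1% over 9 CpGs. The non-coding Bcas3os2 (47.4% and 88.6%), the cytolinker gene Plec (32.5% and 73.2%), Gcnt2, an enzyme of branched poly-N-acetyllactosamine synthesis (9.73% and 50.2%), and the non-coding 4930412O13Rik (25.2% and 65.6%) completed the 9 DMRs of 40 points or more.

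The next in size mixed developmental and structural genes. A DMR in the exon of Mab21l1, a gene of eye development, went from 46.6% to 86.3%. That upstream of Mir378a, within an intron of Ppargc1b, went from 39.5% to 78.8%, and one in a coding exon of Snai1, a zinc-finger repressor of epithelial genes, from 51.5% to 90.8%. The DMR of Dusp27, a dual-specificity phosphatase family member, covered the TSS itself and went from 28.5% to 65.9%. Those at Map1a, a microtubule-associated protein gene (21.6% to 58.9%), and Tnxb, which encodes the matrix protein tenascin X (30.5% to 67.2%), closed the 15 largest.

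The DMRs with the most CpGs started under 30% in infant EC, apart from that next to Mir6991. The largest number, 19 over 631 bp, was in an intron of Dnmt3a, the de novo DNA methyltransferase (chr12:3891929-3892559, centred 499.5 bp downstream of an internal TSS), with means of 19.7% for the infant and 51.7% for the young adult group. The 14 CpGs in the coding exon of Aplnr, the apelin receptor of sprouting EC, went from 6.21% to 36.8%, and the 14 CpGs of the widest region, in an intron of the matricellular gene Sparcl1, from 9.49% to 36.7%. At the somatostatin receptor gene Sstr4, 13 CpGs just upstream of the TSS went from 20.3% to 51.7%. Regions of 10 CpGs lay at Akap12, a scaffold of protein kinase A (27.5% to 63.2%), at Prdm8, a developmental repressor (22.1% to 50.8%), at the non-coding Gm5095 (28.7% to 56.5%) and next to Mir6991 (53.0% to 88.1%). The 9 CpGs at 5730596B20Rik, a non-coding RNA over Hoxa3, went from 3.16% to 35.3%. None of these regions other than Mir6991 exceeded 80% in young adult EC.

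**Figure D4:**
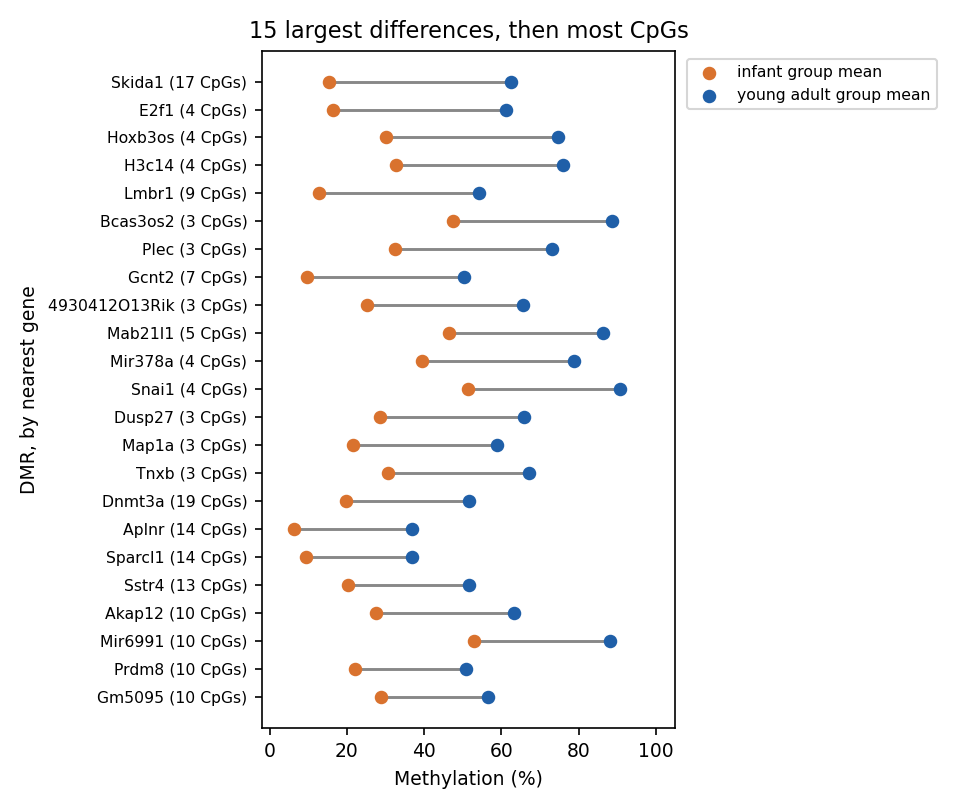
Infant (orange) and young adult (blue) group mean methylation (x axis, %) of the 15 gain DMRs with the largest difference, from Skida1 to Tnxb, then of those with most CpGs that are not among them, from Dnmt3a to Gm5095; each row is 1 DMR named by its nearest gene. In the second set infant levels run from 6.21% at Aplnr to 28.7% at Gm5095, apart from Mir6991 at 53.0%.

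Several genes carried runs of gain DMRs. Tnxb held 5, the most downstream one 647.5 bp past the TSS, with infant levels of 30.5% to 59.4% and young adult levels of 67.2% to 82.9%. The 5 DMRs assigned to the precursor of Mir6991 lay in coding exon sequence of 2700081O15Rik and went from 18.2% to 64.3% in infant EC to 51.2% to 95.9% in young adult EC. Mab21l1 had 4, all in its exon, at 21.4% to 48.1% in infant and 58.0% to 86.3% in young adult EC. The genes with 3 were Plec, Gcnt2, Sstr4, Rps4l (a ribosomal protein S4 paralog), Mmrn2 (multimerin 2, a glycoprotein of the endothelial matrix), Hic1 (a zinc-finger repressor known for its methylation in cancer) and Pgf. Their differences ranged from 18.6 points at Pgf to 40.7 points at Plec. DMRs of 1 gene share the same cells and stretch of DNA and are no replicates of each other.

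Gain also prevailed farther inside these genes. Beyond 1 kb from any TSS, the bodies of the 394 genes held 539 further DMRs, of which 311 gained methylation (57.7%), beside 41.4% of 11569 such DMRs in all genes. At least 1 further gain was found in 124 of the genes, at least 1 loss in 53, both in 31 and neither in 248. The share of all genes with such a gain or loss was not counted to set beside these numbers. Many of the losses were in a few genes, among them Arhgef3 with 57 losses and no further gain, Casz1 with 30 and no further gain, Shroom3 with 5 gains and 16 losses and St3gal2 with 2 gains and 14 losses, named after their values were seen. Gains also came in runs, among them 18 in Hspg2 and 14 in Arhgap28, both without a loss, and 15 in Foxp1 beside 8 losses. These shares describe the same contrast that chose the genes.

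Among signalling genes of vessels, the lists were short and held few gain DMRs each, with infant levels from 3.86% at Acvr2a to 53.1% at Pgf. In the list of VEGF, angiopoietin, FGF, PDGF, KIT and ephrin genes, 3 of 50 (6.0%) had one, beside 1.58% of all genes. They were Aplnr, with a second DMR that went from 12.05% to 45.3%, Angpt2, the antagonist ligand of TIE2 (38.5% to 68.9%), and Pgf, the placental growth factor. The DMR 136 bp upstream of a Pgf TSS had means of 6.80% and 33.1%, and the pair downstream of it went from 31.4% to 49.96% and from 53.1% to 73.3%. In the NOTCH list 1 of 25 genes (4.0%) had a gain DMR, the ligand gene Dll1 (26.4% to 53.9%). In the TGFβ and BMP list 2 of 47 (4.26%) did, the activin receptor gene Acvr2a (3.86% to 18.5%) and the ligand gene Tgfb3 (46.6% to 69.2%). Semaphorins and their receptors had 1 of 29 (3.45%), Sema4c (7.92% to 40.1%). None of 61 WNT, 25 YAP/TAZ and 40 junction and integrin genes had one.

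Cell cycle, matrix and chromatin genes had gain DMRs at a few genes each, beside 1.58% of all genes. Of 50 cell cycle genes 2 (4.0%) had one, E2f1 and the proliferation marker Mki67, whose intronic DMR went from 3.11% to 27.4%. Of 17 DNA methylation writers and erasers only Dnmt3a had one. Beyond 1 kb from any TSS, the body of Dnmt3a held 4 further gains and 8 losses. Of 46 collagen, elastic fibre and basement membrane genes 4 had a gain DMR: Hspg2, which encodes perlecan (21.0% to 53.7%), Fbln5, a fibulin of elastic fibres (50.02% to 78.1%), Sparc, which encodes osteonectin (71.4% to 91.4%), and Sparcl1. Histone genes had 2 of 77 (2.60%), H3c14 and the oocyte linker histone H1f8 (80.1% to 96.4%), and ribosomal protein genes 2 of 99 (2.02%), shares near that of all genes: Rpl37rt (72.7% to 91.5%) and Rps4l. Of 36 endothelial transcription factors only Hhex, a homeobox factor of early endothelium and liver, had one (25.6% to 50.5%).

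The genes named here from families of developmental transcription factors, matched by symbol, had infant levels between 1.87% (Foxp1) and 82.4% (Prrx2) at their gain DMRs. In the HoxB cluster, gain DMRs lay at Hoxb3os and at Hoxb4 (32.0% to 59.9%, shared with Mir10a). Of 119 genes whose symbols matched other homeobox and paired-box families 4 had one (3.36%), beside 1.58% of all genes. One of them, Msx1os (31.6% to 62.2% and 40.1% to 71.04%), is an opposite-strand transcript that matched by its symbol and not a homeobox gene. The others were Nkx6-2 (19.4% to 44.4%), Pax8 (57.1% to 81.9% and 72.4% to 95.2%) and Prrx2 (82.4% to 95.8%). The bHLH and zinc-finger developmental factors with gain DMRs included Snai1, with a second DMR from 33.8% to 60.5%, Prdm8, the HES family repressor Hes3 (14.7% to 39.7%) and Tcf15, a bHLH factor (44.9% to 69.1%). T-box, SOX, FOX and GATA genes had 1 of 87 (1.15%, near the share of all genes), Foxp1 (1.87% to 28.4%). None of 68 protocadherin and 394 Zfp genes had one, beside the same 1.58%.

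Imprinted genes had gain DMRs at 7 of 39, or 17.9%, beside 1.58% of all genes; this list was small and was described only by its count. At the Gnas locus 2 DMRs went from 27.5% to 57.5% and from 27.9% to 52.8%. A single DMR of 4 CpGs in the shared start region of Peg10 and Sgce went from 25.01% to 58.1%, and one upstream of Nnat, a proteolipid gene within an intron of Blcap, from 51.6% to 84.7%. Mkrn3 went from 24.1% to 47.0% and Slc22a18 from 68.0% to 91.0%, and the seventh gene, Zrsr1, had the smallest difference, 15.1 points. None of the 39 had a proximal loss. The share of all genes with a proximal loss was not counted, so nothing is read from this absence. Methylated and unmethylated parental copies both enter a group mean, so these means do not tell 1 fully methylated copy from partial methylation of both.

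**Figure D5:**
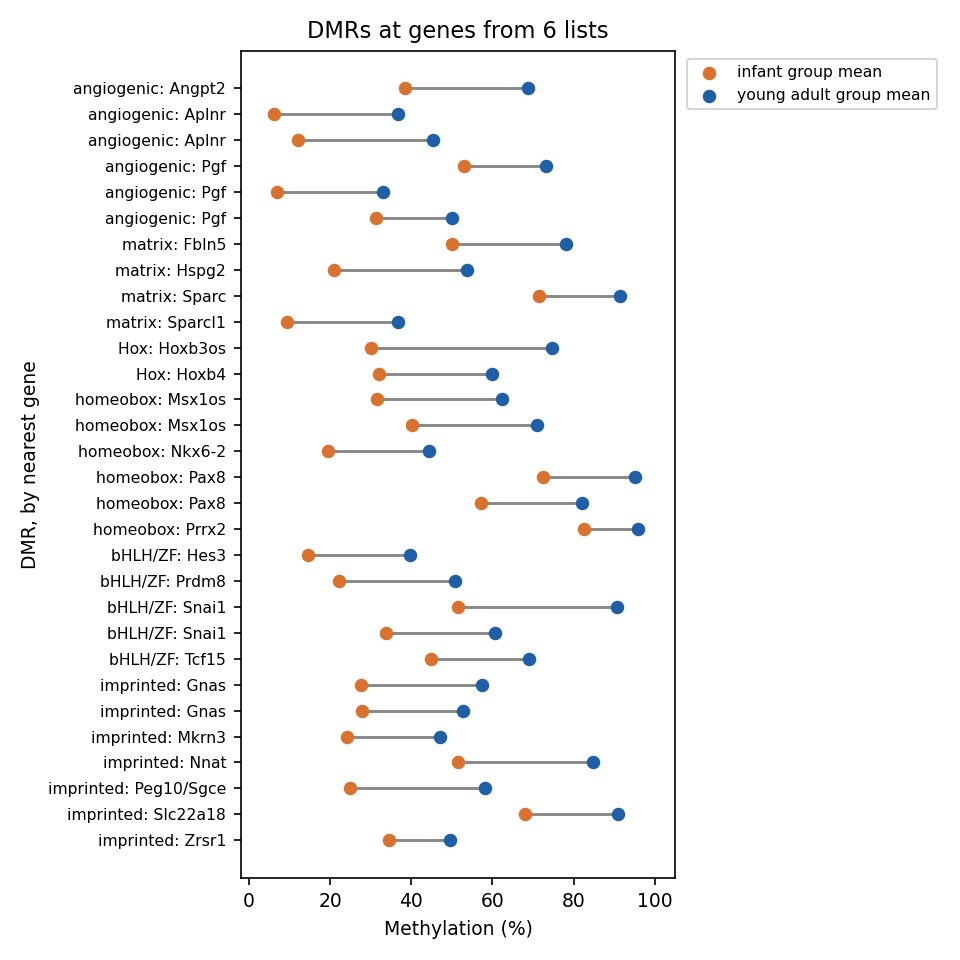
Infant (orange) and young adult (blue) group mean methylation (x axis, %) of gain DMRs within 1 kb of a TSS of genes from 6 lists (angiogenic signalling, matrix, Hox, other homeobox, bHLH and zinc-finger factors, imprinted genes), 1 row per DMR. Infant means run from 6.21% at Aplnr to 82.4% at Prrx2, and Snai1 and Hoxb3os show the longest lines.

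Among microRNA genes 20 of 1100 (1.82%) had a gain DMR, a share near the 1.58% of all genes. RefSeq places the start of these genes at the precursor hairpin, so that these DMRs are near hairpins and not near a mapped promoter. Taking the largest DMR of each hairpin, the 6 largest differences lay at Mir378a, Mir7660 (42.0% to 78.1%), Mir8119 (43.3% to 79.1%, at the T cell kinase gene Lck), Mir6991, the antisense pair Mir219a-2 and Mir219b (41.3% to 70.0%) and Mir10a. The DMR next to Mir127 had the lowest difference of all members, 10.3 points from 89.0% to 99.3%. The DMR near Mir200c and Mir141, named here after its values were seen because it was the only one at 100% in young adult EC, was at 88.7% in infant EC. The mature forms of these hairpins are given from RefSeq, with the seed (bases 2 to 8) in capitals.
mmu-miR-10a-5p: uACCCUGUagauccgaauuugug
mmu-miR-219a-5p: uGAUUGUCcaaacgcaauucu
mmu-miR-127-3p: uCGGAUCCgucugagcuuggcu
mmu-miR-200c-3p: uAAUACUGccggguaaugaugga
mmu-miR-141-3p: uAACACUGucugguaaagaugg
No pair of these 5 seeds is identical; those of miR-200c-3p and miR-141-3p are printed side by side as neighbours of the same DMR.

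In the larger families, 13 of 369 solute carrier genes (3.52%) had a gain DMR, beside 1.58% of all genes. The largest differences were at Slc16a6 (14.3% to 46.2%) and Slc15a3 (39.1% to 66.6%), and the median over the 13 was 18.3 points. Dusp27 and Map3k14 (44.5% to 58.4%) were the 2 of 71 MAP kinase and phosphatase genes, and small nucleolar and nuclear RNA genes had 2 of 136 (1.47%, near the share of all genes), Snora43 (68.2% to 86.4%) and Snord58b (29.9% to 45.7%).

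The study placed amplicons at gains near 6 genes, and of these only Dnmt3a had a gain DMR within 1 kb of a start site. The nearest autosomal gain was 1225.5 bp from a start site at Ccn1 (Cyr61), 1592 bp at Hoxb2, 2392.5 bp at Nr2f2, 3776.5 bp at Cdkn2b and 58281 bp at Kitl. The limit of 1 kb falls among similar regions. Just inside it were DMRs at Wipf1 (995 bp, 22.5% to 57.9%) and Net1 (996.5 bp, 52.7% to 84.9%), and just outside it DMRs at the replication helicase gene Mcm2 (1000.5 bp, 10.4% to 34.7%) and the chaperone gene Hsp90aa1 (1001 bp, 38.1% to 67.4%).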

How the data were processed

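DNA methylation was measured by T-WGBS in 3 infant and 3 young adult samples of sorted lung EC. Per the study's methods and the labels, the authors trimmed reads with SeqPrep, aligned them to mm10 with BWA 0.6.1, removed duplicates with Picard and called DMRs with bsseq in R 3.2.2 without smoothing, from at least 3 consecutive CpGs with p under 0.05 each and a group difference of at least 10 points. Bcl2fastq 1.8.4 is also named per the labels. The deposited values are 1 mean methylation fraction per group and DMR, from 0 to 1, printed here as percent. Regions were therefore chosen by a test on these samples, the authors' minimum coverage per CpG set where DMRs could be called, and the depth per region beyond it is unknown.

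From these values, midpoints were placed against curated transcripts of the RefSeq annotation of GRCm38.p6 (mm10) on chromosomes 1 to 19. The listed positions were found to mark the cytosines of the first and last CpG, and printed intervals cover both CpGs. CpG numbers, islands and motifs come from the reference sequence. Features of gain and loss DMRs were compared by two-sided Fisher's exact tests in SciPy 1.17.1, adjusted by Benjamini-Hochberg over 4 tests; the functions were tested on simulated data. The intervals cover counting of DMRs only. Alternatives changed the distance limit, transcript set, size of difference, CpG number, grouping of regions and island definition.

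The members and gene lists were chosen with earlier results of these data known. Named were the 15 DMRs with the largest difference, the 10 with most CpGs, the genes with most DMRs (all 10 with 3 or more, because of ties), up to 6 genes per list by difference, the amplicon genes and the DMRs at the limits. Some genes and 1 list are not reported here.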

Additional observations from a re-analysis of the deposited data

How the results depend on the processing

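The overlap with CpG islands kept its direction and stayed past the threshold under each of the 9 alternatives, with odds ratios from 2.37 (DMRs merged over 500 bp) to 5.50 (at least 5 CpGs). None of these alternatives matched gains and losses on infant level. The exon result lost its call with 1 DMR per nearest gene (odds ratio 1.30), with merged DMRs (1.32), within 500 bp of a TSS (1.47) and with at least 5 CpGs (2.37). The share downstream of the TSS passed the threshold within 2 kb (0.592) and turned in direction with protein-coding transcripts only (1.02, not past the threshold), and the share at non-coding start sites stayed on its side of the threshold under all 7 alternatives. The number of gain DMRs was 172 within 500 bp, 921 within 2 kb and 61 with at least 5 CpGs, and the median difference was 29.5 points with at least 5 CpGs and 27.0 points where at least 20 points were required; the cause was not tested beyond the narrower or wider selection itself. By distance to the deposited nearest transcript, 340 gain DMRs were within 1 kb. No paired analysis was possible because the list holds 1 mean per group and no value per sample, and for the same reason leaving out single replicates was not run. Group means hide the spread between mice, and the depth, unknown beyond the coverage minimum, limits each level, in particular in DMRs of 3 CpGs.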

Other observations

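The X chromosome was outside the selection. It held 157 gain and 8 loss DMRs, whereas gains were 53.7% of autosomal DMRs. Of the X gains 72 (45.9%) lay within 1 kb of a TSS, beside 4.26% of autosomal gains, and 1 of the X losses did. The median level of these 72 was 11.3% for the infant and 39.1% for the young adult group, and the median difference was 27.0 points. The contrast with the autosomes was not tested, nor was its cause.

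None of the 10 endothelial marker genes examined had a start site within 1 kb of a gain DMR, beside 1.58% of all genes. Further gain DMRs lay at genes of the vessel wall. These genes are examples named after their values were seen, and no share of such genes was counted. They included the sphingosine-1-phosphate receptor gene S1pr3 (infant 22.1%, young adult 52.9%, over 8 CpGs upstream of the TSS), the scavenging chemokine receptor gene Ackr3 (24.2% and 58.3%), the thrombin receptor gene F2r (26.1% and 53.5%, and 12.98% and 31.6% at a second DMR), the endothelial phosphatase gene Ptprb (11.5% and 38.3%, over 7 CpGs), the bradykinin receptor gene Bdkrb2 (3.52% and 26.8%), the calcium channel gene Trpv4 (31.1% and 58.1%) and the scavenger receptor genes Scarb1 (57.8% and 76.5%) and Stab2 (3.27% and 16.6%). Beyond 1 kb from any TSS, the body of Scarb1 held 7 losses and no further gain, and that of Ptprb 2 losses and 2 gains. Trpv4 and Stab2 held 1 further gain each and no loss, and the other genes named here held neither.

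None of the 8 leukocyte and 8 mesenchymal marker genes examined had a start site within 1 kb of a gain DMR, beside 1.58% of all genes. Some other genes known from muscle and T cells were among the members. They are examples named after their values were seen, and no share of such genes was counted. Contractile and muscle genes included Cald1 (36.3% and 70.0%), Actg2 (47.8% and 80.2%), Tnni1 (48.1% and 74.5%) and Csrp2 (14.97% and 40.96%), and T cell genes included Zap70 (42.6% and 69.2%) and Spn (72.1% and 88.8%). Cald1 also had a proximal loss, and its body held 2 further losses and no further gain.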
